A study of Mus musculus with 48 samples.

Results

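The small (40S) subunit of the cytosolic ribosome was followed through its protein genes, which were taken as Rpsa, Fau and every gene whose symbol begins with Rps and a digit. The Rps6k kinase genes, Rps19bp1 and symbols marking pseudogenes were left out. This gave 45 probes of 33 genes, 11 of them with more than 1 probe, among 41174 probes in all, and where a gene had several probes its brightest probe represented it. Of the 33 genes, Rps4l was kept by its symbol, although its only probe is assigned to a non-coding RefSeq transcript. The mice were offspring aged 12 weeks of the strain that the labels call C57/BL6. The labels call the diets sufficient (H) or deficient (L) in selenium and folate, while the study's methods describe high-fat diets that were supplemented with both (H) or only marginally deficient in them (L), given to dams and offspring. The first letter of a group is the diet of the dam through mating, gestation and lactation and the second letter is that of the offspring from weaning, so that HH and LL kept 1 diet and HL and LH were switched. Liver RNA came from 5 HH, 6 HL, 6 LH and 6 LL mice and colon RNA from 6 mice of each group, and all offspring were described as male. Each array carried mouse RNA in Cy3 and a common mouse reference RNA in Cy5, and every value below is the log2 ratio of mouse over reference. The labels call this reference multi-organ RNA from a pregnant mouse and foetus, whereas the study's methods describe pooled intestinal and liver RNA. A ratio therefore orders mice for 1 gene and not genes within a mouse.

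The small subunit binds mRNA and reads its codons, and it is built from 1 ribosomal RNA and a set of proteins that occur, for the most part, once per subunit. Its head carries, among others, Rps3, Rps19 and Rps25, and its body and platform carry, among others, Rps6, Rps4x and Rpsa. Vertebrate ribosomal protein mRNAs typically begin with a C followed by an unbroken run of pyrimidines, the 5′ terminal oligopyrimidine (TOP) tract, through which mTORC1 and Larp1 govern their translation and stability together. In liver and in the renewing epithelium of the colon, ribosomal protein mRNAs are among the abundant messages.

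The RefSeq promoter table (GRCm38.p6) held a window around the annotated transcript start for 25 of the 33 genes. The windows of members that the results below turn on are shown with and without such a tract at the annotated start. Each sequence runs 10 bases before and 20 bases from the annotated start, with capitals marking a C followed by at least 4 bases that are each C or T, within 2 bases of that start.
Fau: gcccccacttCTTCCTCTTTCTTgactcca
Rps18: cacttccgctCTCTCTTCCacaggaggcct
Rps24: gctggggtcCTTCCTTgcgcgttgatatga
Rps27: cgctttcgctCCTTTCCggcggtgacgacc
Rps27l: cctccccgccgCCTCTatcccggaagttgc
Rps6: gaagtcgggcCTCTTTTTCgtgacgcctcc
Rps19: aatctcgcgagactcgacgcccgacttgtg
Rps25: ccgacatcttagcgaggctgctgtggtcta
Rps12: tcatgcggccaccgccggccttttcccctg
They lie at chr19:6057937-6057966 (plus strand), chr17:33955646-33955675 (minus strand), chr14:24490668-24490697 (plus strand), chr3:90213629-90213658 (minus strand), chr9:66946076-66946105 (plus strand), chr4:86857348-86857377 (minus strand), chr7:24884582-24884611 (plus strand), chr9:44407704-44407733 (plus strand) and chr10:23787190-23787219 (minus strand), in that order. The tract stood exactly at an annotated start of 7 of 25 members (28%), against 3.01% of all 27025 genes in the table, and within 2 bases of it in 9 (36%), against 10.6%. Rps19, Rps25 and Rps12 hold no tract within 2 bases of the annotated start, although Rps12 has a pyrimidine run further into the transcript, and annotated starts need not be the bases at which transcription begins.

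Letters searched on both strands of the windows from 250 bases before to 50 after the start were GGGCGG, held by 14 of the 25 members (56%, against 38.2% of all genes), CCGGAAGT, held by 5 (20% against 4.31%), and ATGGCG, held by 7 (28% against 10.2%). TATAAA was held by 2 (8% against 15.7%) and CACGTG by 1 (4% against 8.09%).

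Across the 48 arrays, 54.0 to 64.5% of spots on liver arrays and 65.3 to 72.0% on colon arrays were well above background in Cy3, and the number of mice limits the precision of every value. The labels gave 2 HH liver arrays the same animal, whose deviations from the group mean correlated at r = 0.805 against at most 0.260 for any other pair, and these were averaged. Each of the 12 slides held 1 array of each diet group and a single tissue. Defining hepatocyte markers were higher in liver than colon for 13 of 13 probes and smooth muscle markers lower for 15 of 15, so both tissues carried their own markers. Xist RNA was present on 2 liver and 6 colon arrays although the offspring were described as male. The Y chromosome gene Eif2s3y, in log2 Cy3, was lowest at 9.78 on arrays without Xist RNA. Among those with Xist RNA it was 6.29 in HL liver replicate 2 and 6.30 in HL colon replicate 5. LL colon replicates 1 and 3 had 7.37 and 6.38. LL liver replicate 6 had 10.63, HH colon replicates 1 and 5 had 10.70 and 10.09, and LL colon replicate 5 had 11.17. The sex of these mice was not tested. Another LL colon array, 1 without Xist RNA, carried lymphocyte markers far above the others. The liver arrays with Xist RNA were 1 HL and 1 LL mouse, so they enter liver LH against HH only through the shared estimate of the spread. Without all mice with Xist RNA, 31 member probes were called lower in liver than in colon, the same number as without that LL colon array. The labels name no litters, so mice of a group may be littermates.

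The members were bright and measurable. In Cy3, 44 of 45 probes were well above background on every liver array and 44 on every colon array, and none was saturated on any array. Among the 500 brightest probes, 27 in liver and 31 in colon belonged to the small subunit. Summarised as the median over the 33 genes in each mouse, the small subunit in liver lay below the reference in every mouse. The liver median was -0.39 ± 0.11 (SD, n = 5) in HH, -0.54 ± 0.13 (SD, n = 6) in HL, -0.59 ± 0.13 (SD, n = 6) in LH and -0.47 ± 0.037 (SD, n = 6) in LL. In colon it lay above the reference in every mouse, at 0.35 ± 0.069 (SD, n = 6) in HH, 0.34 ± 0.10 (SD, n = 6) in HL, 0.40 ± 0.039 (SD, n = 6) in LH and 0.40 ± 0.095 (SD, n = 6) in LL. The HH mice were the highest of the liver groups on average, the LH mice the lowest, and the groups overlapped. The LL livers were the most alike, with all 6 mice between -0.52 and -0.43.

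**Figure D1:**
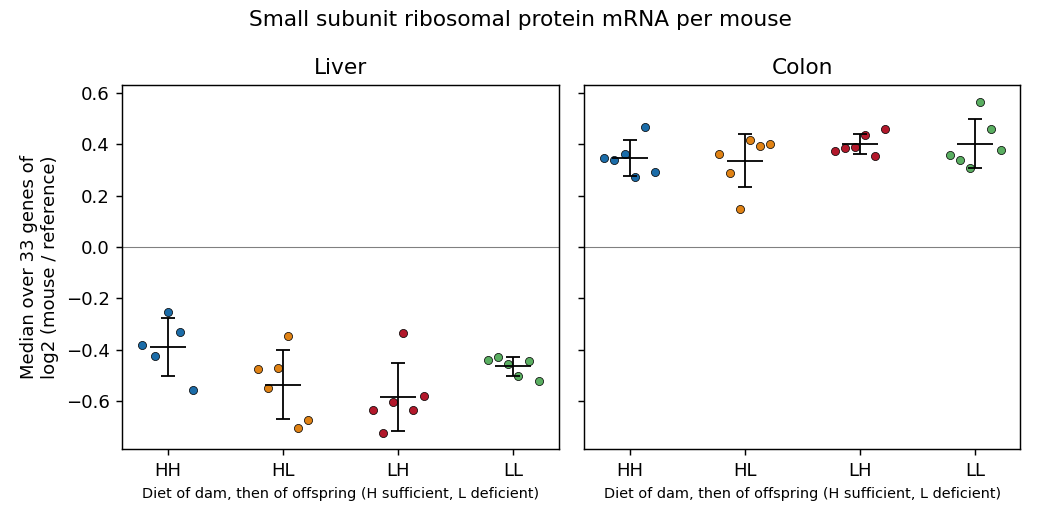
Median over the 33 small subunit genes of log2 mouse over reference, 1 point per mouse, with the group mean and SD as a bar, for the 4 diet groups in liver (left) and colon (right). Liver means run from -0.59 in LH to -0.39 in HH, and the 4 colon means from 0.34 to 0.40.

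The comparison of HH *vs.* LH asked what a deficient diet of the dam did to offspring that were fed the sufficient diet after weaning. In liver, 30 of the 33 genes were lower in LH than in HH, and the median change was -0.26, with a range from -0.58 to 0.15, beside -0.018 over all named genes. A probe was called where its FDR was under 0.05 and its change over 1.5-fold. No member was, as held for every probe on the arrays, the share called being 0% of 41171, and the lowest adjusted p among the members was 0.182. At an unadjusted p under 0.05, 21 of the 45 member probes, of 18 genes, were lower and 0 higher, where 6.14% of all probes were lower and 5.85% higher. For 4 member probes every LH mouse was below every HH mouse, against 0.843% of all probes. With each array centred on its median in place of loess, 10 probes were lower at that p, and the share of all probes was not computed there. The member probes share the same mice and arrays, so their number is not a number of independent results.

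Rps25, a head protein known for its part in internal ribosome entry, had the lowest p of the members. Its liver values were -0.17, -0.18, -0.012, 0.21 and -0.21 in the HH mice, against -0.67 to -0.34 (median -0.50) in LH. No LH mouse reached an HH mouse, and the difference was -0.44 ± 0.10 (SE, adjusted p = 0.182) by limma. The second Rps25 probe gave -0.35 (adjusted p = 0.227) and also did not overlap. Rps27a, made as a fusion with ubiquitin, stood at -0.41, -0.54, -0.38, -0.33 and -0.22 in HH and at -1.15 to -0.68 (median -0.98) in LH. These groups did not overlap either, with a difference of -0.58 ± 0.13 (SE, adjusted p = 0.190) by limma. Rps19, whose human counterpart is mutated in Diamond-Blackfan anaemia, had values of -0.18, 0.081, 0.10, 0.20 and 0.097 in HH and -0.63 to -0.17 (median -0.53) in LH. A single LH mouse overlapped the HH range, and the difference was -0.54 ± 0.13 (SE, adjusted p = 0.190), while the dimmer Rps19 probe gave -0.26 (adjusted p = 0.570).

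Their adjusted p depended on the samples that shared the estimate of the spread, while the differences did not. With the 8 groups of both tissues in 1 limma fit it was 0.0113 for Rps25, 0.0206 for Rps27a and 0.0275 for Rps19, and with the HH and LH mice alone it was 0.0364 for Rps27a. All 3 differences remained below a fold change of 1.5, so none was called.

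Among proteins of the body, Rps24, a further Diamond-Blackfan gene, was at -0.53 ± 0.15 (SE, adjusted p = 0.224), Rps7 at -0.42 ± 0.14 (SE, adjusted p = 0.259) without overlap, and Rps27, a zinc finger protein, at -0.34 ± 0.11 (SE, adjusted p = 0.255). Fau, which encodes a ubiquitin-like protein fused to a ribosomal protein, was at -0.32 ± 0.15 (SE, adjusted p = 0.414), and Rps4x, encoded on the X chromosome, at -0.18 ± 0.10 (SE, adjusted p = 0.509). Rps27l, the paralog of Rps27 and a p53 target, was at -0.40 ± 0.13 (SE, adjusted p = 0.253), and Rps4l, related to Rps4x, at -0.070 ± 0.19 (SE, adjusted p = 0.922). Rps23, at the decoding centre, had values of -0.85, -0.90, -0.80, -0.95 and -1.21 in HH and -1.48 to -1.03 (median -1.30) in LH, a difference of -0.34 ± 0.11 (SE, adjusted p = 0.253).

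Of the other head proteins, Rps12 was at -0.51, Rps18 at -0.40 and Rps10 at -0.32, and each of these was lower at an unadjusted p under 0.05, as was Rps16 at -0.18. Rps20, Rps29, Rps28 and Rps15 were between -0.21 and -0.11 and did not pass at that p. In the body and platform, Rps13 was at -0.49, Rps21 at -0.32 and Rps15a at -0.31, all lower at that p. Rps14 at -0.18 and Rps26 at -0.094 did not pass. By place in the subunit, all 14 genes of the head were lower in LH, with a median of -0.24, and 14 of 17 genes of the body and platform, with a median of -0.31.

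Several members lay near 0 or above it. Rps6, the substrate of the S6 kinases, stood at -0.38, -0.72, -0.28, -0.42 and -0.65 in HH and -0.67 to -0.27 (median -0.53) in LH. The groups covered each other, and the difference was -0.0057 (0.083 with median centring) with a 95% interval from -0.24 to 0.23. Rps3a1 was at -0.0030 by its brighter probe and -0.27 by the other. Rps2 and Rps9, which line the mRNA entry, were at 0.057 and 0.038, and Rpsa, known also as the laminin receptor, was at 0.15 with an interval from -0.32 to 0.63. Rps3, at the same entry, was at -0.19 by its brighter probe and -0.56 by a dimmer one. Whether these genes responded otherwise than the rest was not tested.

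**Figure D2:**
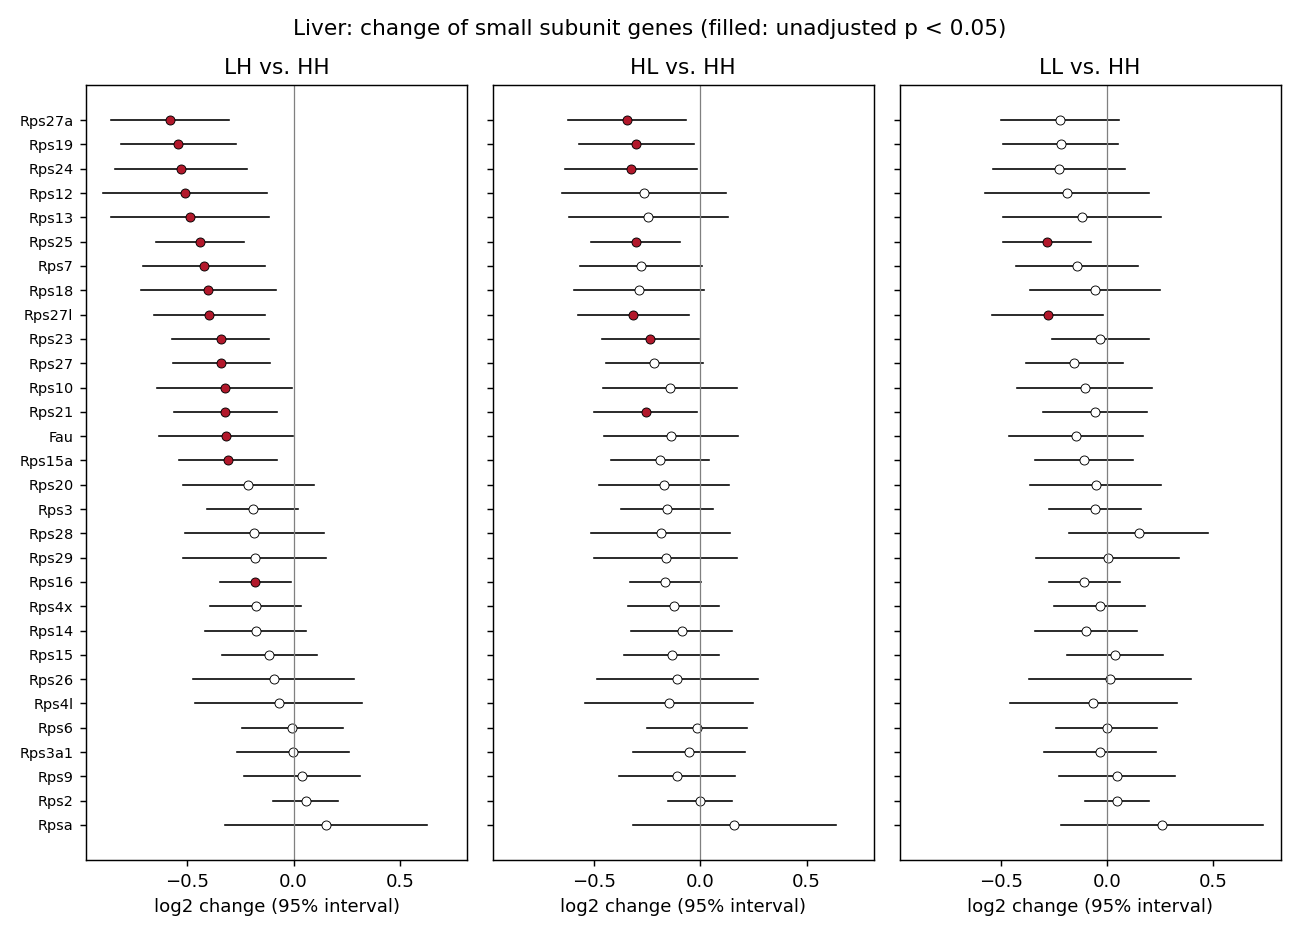
Change of 30 of the 33 genes in liver as log2 LH, HL and LL over HH (points, with limma 95% intervals), ordered by the change in LH. Filled points have an unadjusted p under 0.05, which holds for 16 of the genes shown in LH, 7 in HL and 2 in LL, all of them lower than HH.

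A deficient diet after weaning only (HL) and throughout (LL) was compared with the same HH mice, so that the 3 comparisons share their controls and are set side by side. In HL, 32 of the 33 genes were below HH with a median change of -0.17, and 9 of 45 member probes passed an unadjusted p under 0.05, all lower, against 2.24% of all probes. In LL, 25 genes were below HH with a median of -0.057, and 3 probes were lower at that p, against 2.2%. No probe on the arrays was called in either comparison, and the lowest adjusted p of a member was 0.952 in HL and 1.00 in LL. Rps25 was at -0.30 ± 0.10 (SE, adjusted p = 0.952) in HL, where values ran -0.63 to 0.072 (median -0.43), and at -0.28 ± 0.10 (SE, adjusted p = 1.00) in LL, where they ran -0.46 to -0.25 (median -0.36). All 6 LL mice were below all 5 HH mice, as held for 0.253% of all probes, while 1 HL mouse lay within the HH range. Rps27a ran -0.94 to -0.31 (median -0.82) in HL and -0.90 to -0.12 (median -0.67) in LL, both overlapping HH. With median centring, 0 probes were lower in HL and 0 in LL at that p, and the LL median turned to 0.093. Leaving out HH replicate 3 left 2 HL probes at that p, HL replicate 3 left 5, HL replicate 5 left 3, HL replicate 6 left 4, and HL replicate 4 gave 16. The LL count was 1 without LL replicate 3 or 4 or HH replicate 4, and the LL median was -0.12 without HH replicate 5 and -0.036 without HH replicate 3. The Rps27a differences were -0.34 and -0.22, those of Rps27l -0.32 and -0.28, and those of Rps19 -0.30 and -0.22.

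Mice whose dams and whose own diet were both deficient (LL) had higher liver values than LH mice in 31 of 33 genes, with a median difference of 0.17, and 16 of 45 probes were higher at an unadjusted p under 0.05, against 3.19% of all probes. None was called and the lowest adjusted p was 0.768. That count was 8 to 10 without LH replicate 2 or 5 or without LL replicate 2, 5 or 6, and 10 without the mice with Xist RNA. Against HL, LL was higher by a median of 0.098, with 5 probes at that p (1.43% of all probes), and 2 to 8 with 1 mouse left out. The contrast of matched (HH and LL) with switched diets (HL and LH) gave 24 probes of 17 genes higher under matched diets at an unadjusted p under 0.05, against 5.4% of all probes, and a median of 0.18. No probe was called, and the lowest adjusted p was 0.292. With median centring the count was 14, and the share of all probes was not computed there. Rps27a was at 0.35 ± 0.093 (SE, adjusted p = 0.292) and Rps23 at 0.27 ± 0.076 (SE, adjusted p = 0.292). With array weights both had an adjusted p of 0.0486 by limma, below a fold change of 1.5. Rps23 ran -1.40 to -0.79 (median -1.24) in HL and -1.33 to -0.83 (median -0.91) in LL, beside its LH and HH values above. The 2 main effects were small, with a median of -0.061 for the dam diet (5 probes lower at that p, 1 with median centring and 9 without HL replicate 5, against 2.68% of all) and 0.0045 for the offspring diet (0 probes at that p, against 1.37% of all in either direction).

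Since each slide held 1 mouse of each diet group, the differences of the member median were also read within slides. LH was below HH on 6 of 6 liver slides (2 of which carried the same HH animal), with differences from -0.38 to -0.0046, and HL below HH on 6 of 6, from -0.42 to -0.017. LL was below HH on 5 of 6 and above LH on 5 of 6. Matched exceeded switched diets on 5 of 6 slides, from -0.075 to 0.24. In colon, LH exceeded HH on 5 of 6 slides, from -0.11 to 0.17, and the HL minus HH differences were split 3 and 3.

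Across the 8 groups, HH was the highest liver group on average for Rps25, Rps27a, Rps19, Rps3, Fau, Rps4x and Rps4l, and the lowest for Rpsa. Each mean below is over 5 mice in HH liver and 6 in the other groups. Rps25 in liver had group means of -0.072 in HH, -0.38 in HL, -0.51 in LH and -0.35 in LL (SD 0.081 to 0.24) and in colon of 0.041 in HH, -0.019 in HL, 0.012 in LH and 0.063 in LL (SD 0.11 to 0.13). Rps27a in liver had group means of -0.37 in HH, -0.72 in HL, -0.96 in LH and -0.59 in LL (SD 0.11 to 0.31) and in colon of 0.12 in HH, 0.071 in HL, 0.12 in LH and 0.15 in LL (SD 0.13 to 0.24). Rps19 in liver had group means of 0.058 in HH, -0.24 in HL, -0.48 in LH and -0.16 in LL (SD 0.14 to 0.30) and in colon of 0.58 in HH, 0.52 in HL, 0.61 in LH and 0.64 in LL (SD 0.17 to 0.20). In these 3 genes the colon group means lay within 1 SD of each other. Rps6 in liver had group means of -0.49 in HH, -0.51 in HL, -0.50 in LH and -0.49 in LL (SD 0.16 to 0.25) and in colon of -0.29 in HH, -0.33 in HL, -0.22 in LH and -0.23 in LL (SD 0.28 to 0.36), with liver means far closer together than their SD. Rps3 in liver had group means of -0.35 in HH, -0.51 in HL, -0.55 in LH and -0.41 in LL (SD 0.13 to 0.20) and in colon of 0.29 in HH, 0.30 in HL, 0.35 in LH and 0.30 in LL (SD 0.088 to 0.15). Rpsa in liver had group means of 0.17 in HH, 0.33 in HL, 0.32 in LH and 0.42 in LL (SD 0.33 to 0.53) and in colon of 0.83 in HH, 0.82 in HL, 1.03 in LH and 0.91 in LL (SD 0.21 to 0.30). Fau in liver had group means of 0.054 in HH, -0.084 in HL, -0.26 in LH and -0.092 in LL (SD 0.17 to 0.38) and in colon of 0.64 in HH, 0.69 in HL, 0.69 in LH and 0.80 in LL (SD 0.21 to 0.38). Rps4x in liver had group means of -0.50 in HH, -0.62 in HL, -0.68 in LH and -0.53 in LL (SD 0.079 to 0.21) and in colon of 0.76 in HH, 0.71 in HL, 0.82 in LH and 0.79 in LL (SD 0.13 to 0.29). Its relative Rps4l in liver had group means of 1.60 in HH, 1.45 in HL, 1.53 in LH and 1.53 in LL (SD 0.10 to 0.45) and in colon of 1.20 in HH, 1.09 in HL, 1.06 in LH and 0.94 in LL (SD 0.14 to 0.35).

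**Figure D3:**
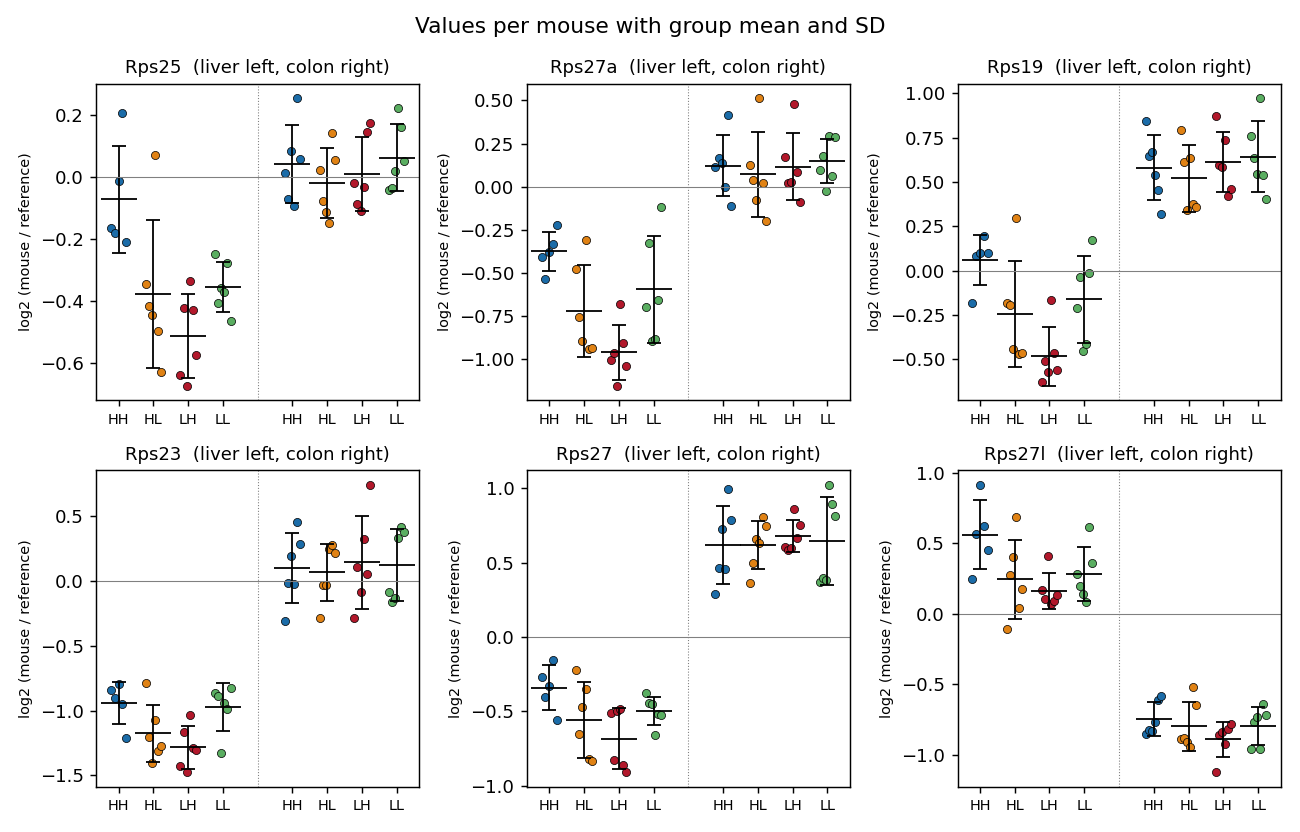
Log2 mouse over reference of 6 genes, 1 point per mouse with group mean and SD, liver groups on the left and colon groups on the right of each panel. In liver every LH point of Rps25 and Rps27a lies below every HH point, and Rps27l is the only gene shown whose colon values, all below 0, lie under its liver values.

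In colon no member probe passed the test in a pairwise comparison of diets. For LH against HH the median change was 0.045, with 23 genes higher and 10 lower, no member at an unadjusted p under 0.05 (limma), and 3.24% of all probes at that p in either direction. Rps12, a head protein, was at 0.21 ± 0.11 (SE, adjusted p = 1.00), with values of 0.35 to 0.95 (median 0.51) in LH against 0.21 to 0.56 (median 0.31) in HH, which overlapped. Rps27l at -0.14 and Rps26, which contacts mRNA near the exit, at -0.18 had differences in the opposite direction. Rps25 was at -0.030 with a 95% interval from -0.18 to 0.12, and Rps27a at -0.0039, from -0.22 to 0.22. Across the other 5 pairwise colon comparisons, no member probe passed an unadjusted p under 0.05 and none was called by limma, where 1.46% of all probes passed for HL against HH, 1.72% for LL against HH, 1.02% for LL against HL, 2.8% for LL against LH and 2.95% for LH against HL. These counts of 0 changed with the fit, and the share of all probes under each other fit was not computed. With the slide as a fixed block, 2 probes were lower at that p for LH against HH, 2 lower for LL against HH, 1 lower and 1 higher for LL against LH, and 4 higher for LH against HL. With the mouse channel alone 5 were higher for LL against HL. Without the 6 colon mice with Xist RNA the LH minus HH median was 0.067, with 1 probe higher at that p, and the contrast of the dam diets had 4 probes higher in place of 0.

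Whether the difference between LH and HH itself differed between tissues was tested in 1 fit of all 8 groups with the slide as a random block. The liver difference was below the colon difference in 29 of 33 genes, with a median of -0.30, and 24 of 45 member probes were lower at an unadjusted p under 0.05, against 6% of all probes. No member was called, and the lowest adjusted p was 0.197. The count was 9 with median centring and 14 without HH liver replicate 3. Rps27a was at -0.58 ± 0.16 (SE, adjusted p = 0.214), Rps25 at -0.40 ± 0.10 (SE, adjusted p = 0.214) and Rps19 at -0.58 ± 0.15 (SE, adjusted p = 0.197).

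The members differed more between tissues than between diets. Over all diets, 32 of 45 member probes were called lower in liver than in colon, where 15.7% of all probes were called lower and 14.6% higher, and 1 was higher. The median over the 33 genes was -0.89, beside 0.014 over all named genes. It was 0.24 over the probes above the 90th percentile of brightness on liver arrays, without ribosomal proteins. Choosing probes by liver brightness can itself raise their liver over colon ratio, so this value is no neutral measure of bright probes. For 25 member probes all 23 liver mice lay below all 24 colon mice, against 12% of all probes. The labels do not show whether liver and colon samples share mice, and the fit did not pair them. Liver and colon arrays were on separate slides and scanned apart, so tissue and scan cannot be told apart, and in bulk RNA fewer cells of a type and less RNA per cell cannot be told apart.

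The widest gaps were those of Rps12 at -1.62 ± 0.099 (SE, adjusted p = 2.70e-19), Rps29, a small zinc-binding head protein, at -1.48 ± 0.088 (SE, adjusted p = 1.19e-19) and Rps20, also of the head, at -1.47 ± 0.098 (SE, adjusted p = 5.83e-18). In HH mice, Rps12 was at -1.06, -0.88, -0.60, -0.98 and -1.28 in liver and 0.21 to 0.56 (median 0.31) in colon. Rps29 was at -0.13, -0.34, -0.70, -0.81 and -0.73 in HH liver and 0.41 to 1.15 (median 0.74) in HH colon. Rps6 had the narrowest gap of the subunit's own proteins, at -0.23 ± 0.086 (SE, adjusted p = 0.0170), and its colon values in HH ran -0.73 to 0.18 (median -0.32), which covers the HH liver range. That Rps6 difference was -0.62 (adjusted p = 1.05e-06) with median centring and -0.81 (adjusted p = 9.20e-18) with the mouse channel alone, by limma, and both would be called. Rps19 was at -0.80 ± 0.073 (SE, adjusted p = 2.09e-13), Rps3 at -0.77 ± 0.053 (SE, adjusted p = 2.45e-17), Fau at -0.81 ± 0.092 (SE, adjusted p = 1.43e-10) and Rpsa at -0.60 ± 0.11 (SE, adjusted p = 3.22e-06). Rps25 was at -0.36 ± 0.052 (SE, adjusted p = 5.19e-08), which did not reach the fold threshold. By place in the subunit, the median difference was -0.83 over the 14 genes of the head and -0.96 over the 17 of the body and platform. Rps2 at -0.55, Rps10 at -0.43 and Rps15 at -0.31 also stayed under the fold threshold.

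Rps27 and its paralog Rps27l, whose start windows are printed above, went opposite ways between the tissues. Rps27 was lower in liver at -1.16 ± 0.069 (SE, adjusted p = 1.09e-19), with HH values of -0.27, -0.40, -0.33, -0.15 and -0.56 in liver and 0.29 to 1.00 (median 0.60) in colon. Rps27l was higher in liver at 1.12 ± 0.066 (SE, adjusted p = 8.55e-20), with HH values of 0.25, 0.56, 0.91, 0.62 and 0.45 in liver and -0.85 to -0.58 (median -0.80) in colon. For both genes all liver mice were on 1 side of all colon mice. Rps4x and the related Rps4l also differed in sign, at -1.35 ± 0.071 (SE, adjusted p = 8.50e-22) and 0.45 ± 0.10 (SE, adjusted p = 0.000176), the latter below the fold threshold and -0.079 with median centring. Ribosomal protein genes have many processed pseudogenes and these pairs are alike in sequence, so that a probe may also take up RNA of a copy.

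**Figure D4:**
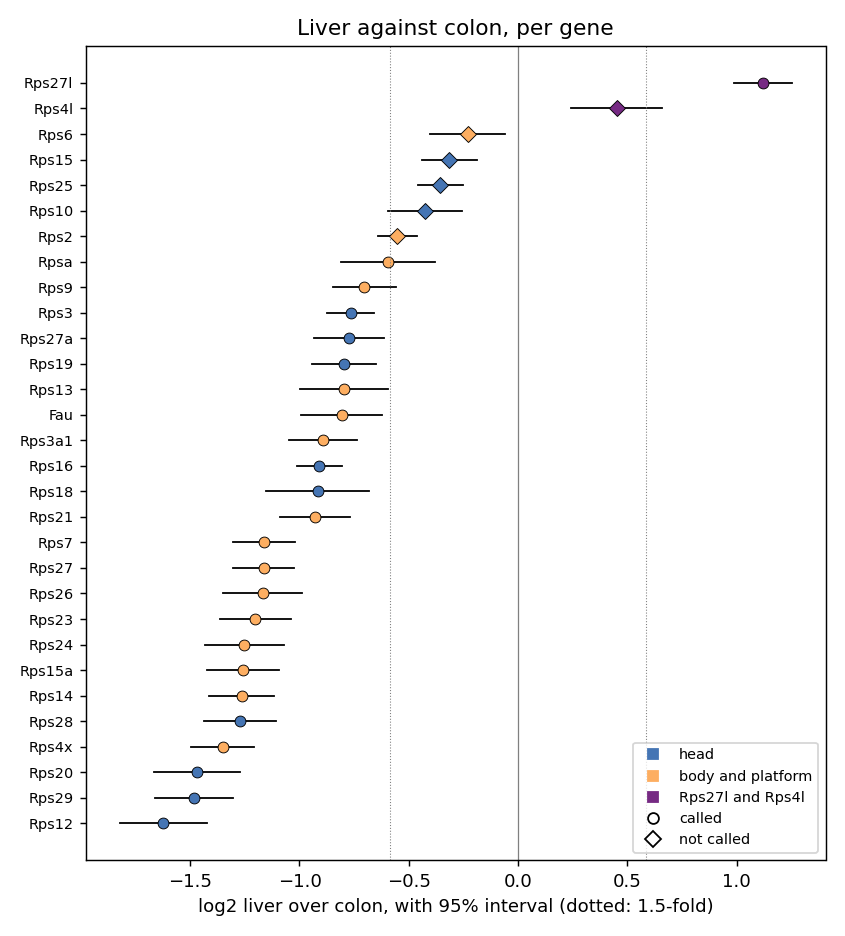
Log2 liver over colon of 30 of the 33 genes with the 95% interval from limma, over all diets, coloured by place in the subunit. Circles were called and diamonds were not. The points run from -1.62 for Rps12 to 1.12 for Rps27l, and Rps27l and Rps4l are the points above 0, Rps4l falling below 0 with median centring.

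Probes of 1 gene did not always give 1 answer between tissues. The 2 probes of Rps25 were at -0.36 and 0.39 (adjusted p = 8.37e-08), on either side of 0, although they were alike for LH against HH. The dimmer probe of Rps19 was at -0.16 and that of Rpsa at -0.15. The dimmer probe of Rps15a was well above background on 8.33% of liver and 25% of colon arrays, so its value is not set against the brighter one. For Rps28 both probes were called lower, at -1.27 and -1.09. Members with a TOP tract within 2 bases of the annotated start had a median of -0.92 over 9 genes in liver against colon and those without of -0.84 over 16. For LH against HH in liver the same medians were -0.32 and -0.18, a split made after the values were seen and not tested.

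Genes that make or use the subunit were read from the same fits. For LH against HH in liver, the large subunit proteins had 27 of 79 probes lower and 1 higher at an unadjusted p under 0.05, with a median of -0.16 over 52 genes. Factors that assemble the small subunit gave 4 of 73 probes lower and 12 higher at that p, with a median of 0.0057 over 46 genes. The helicase gene Dhx37 was at 0.36 ± 0.12 (SE, adjusted p = 0.270) and Utp25, a member of the small subunit processome, at 0.38 ± 0.14 (SE, adjusted p = 0.282). Translation factors and other mRNAs of the TOP class gave 0 of 37 probes lower and 7 higher, with a median of 0.042. Within it, Eif3l was at 0.37 ± 0.12 (SE, adjusted p = 0.244) and Eif3h at -0.19 ± 0.093 (SE, adjusted p = 0.426). Genes of the mTORC1 and S6 kinase pathway gave 2 of 41 lower and 7 higher, with Larp1, which binds TOP mRNAs, at 0.30 ± 0.11 (SE, adjusted p = 0.289) and the Rag GTPase gene Rragd at -0.60 ± 0.17 (SE, adjusted p = 0.224). No gene of these lists was called. Over all probes 6.14% were lower and 5.85% higher at that p. The shares of lower probes among the assembly factors, the TOP class and the mTORC1 and S6 kinase list were below the former. Their shares of higher probes were above the latter. These shares count every probe, and several can belong to 1 gene. By the brightest probe of each gene, Eif3l was the only gene of the TOP class at that p. In the mTORC1 and S6 kinase list, Larp1 was then the only higher gene, and Rragd was among the lower.

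Between the tissues, the counts of called probes in each list stand beside 15.7% called lower and 14.6% called higher over all probes. Of the assembly factors, 16 of 73 probes were called higher in liver and 0 lower, with a median of 0.29, among them Rcl1 at 2.75 (adjusted p = 5.68e-35) and the kinase gene Riok2 at 1.53 (adjusted p = 3.69e-22). Of the TOP class, 13 of 37 probes were called lower and 1 higher, with a median of -0.55, among them Rack1, which sits on the head of the small subunit, at -1.53 (adjusted p = 2.96e-22) and Eef1b2 at -1.12 (adjusted p = 8.02e-21). Large subunit proteins had 57 of 79 probes called lower and 3 higher, with a median of -0.77. Of the mTORC1 and S6 kinase list, 7 of 41 probes were called lower and 5 higher, both near the shares over all probes. Markers of dividing cells were lower in liver for 14 of 15 probes, with a median of -1.96, and their part in the tissue difference was not tested.

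Markers of blood, immune and dividing cells were read in the same liver comparison, where 6.14% of all probes were lower and 5.85% higher at an unadjusted p under 0.05. For LH against HH, 5 of 16 lymphocyte probes, 6 of 12 erythroid probes and 7 of 15 probes of dividing cells were lower at an unadjusted p under 0.05, 1 erythroid probe was higher, and none was called. Of 12 Kupffer and myeloid probes 1 was lower, near the share over all probes, and 2 of 13 hepatocyte probes were higher. By the brightest probe of each gene, all 9 Kupffer and myeloid genes were nevertheless below HH in LH, from -1.08 to -0.076. The median of the Kupffer and myeloid list per mouse ran from 0.69 to 1.97 in HH and from 0.68 to 1.80 in LH. The median of the lymphocyte list per mouse ran from -0.64 to -0.034 in HH and from -1.05 to -0.40 in LH, and that of the erythroid list from 0.11 to 0.75 and from -0.087 to 0.52. The T cell receptor gene Cd3d was at -0.57 ± 0.17 (SE, adjusted p = 0.241), the pan-leukocyte gene Ptprc at -0.61 ± 0.19 (SE, adjusted p = 0.246), the globin gene Hba-a1 at -0.49 ± 0.14 (SE, adjusted p = 0.230), the Kupffer cell receptor gene Marco at -1.08 ± 0.38 (SE, adjusted p = 0.287) and the cycling marker Mki67 at -0.40 ± 0.14 (SE, adjusted p = 0.289). Among defining markers, Top2a, Aurkb and Ccnb1 were not well above background in liver. Their part in the member differences was not tested.

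**Figure D5:**
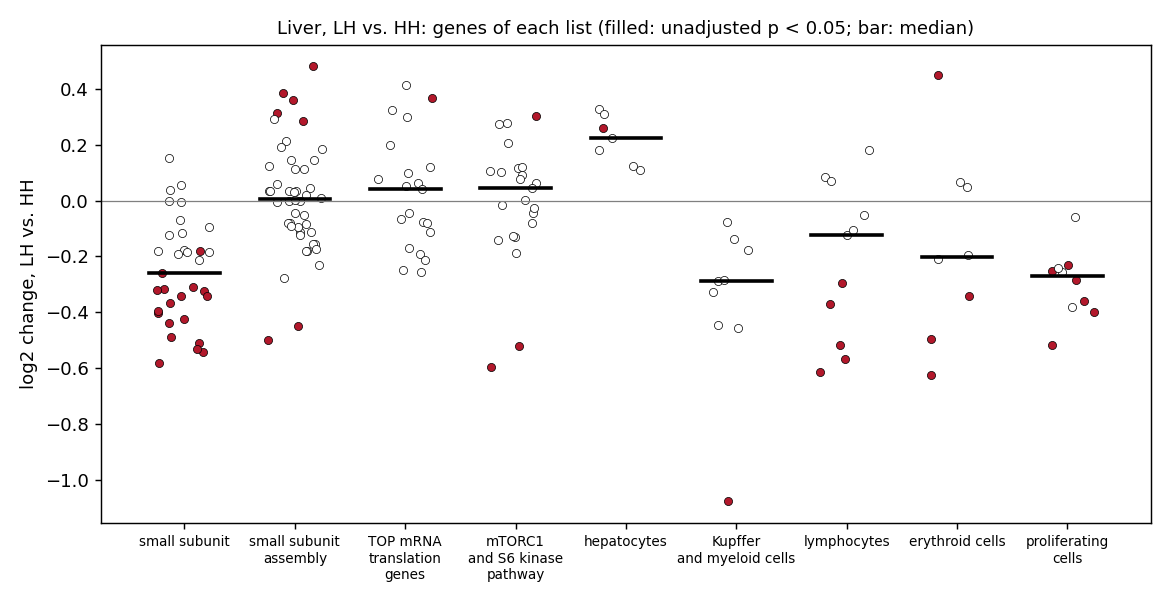
Log2 LH over HH in liver for every gene of the small subunit and of 8 other lists, 1 point per gene, filled where the unadjusted p is under 0.05, with the list's median as a bar. The small subunit median is -0.26, beside 0.0057 for assembly factors and -0.29 for Kupffer and myeloid markers.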

How the data were processed

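RNA of liver and colon was hybridised on 48 two-colour Agilent arrays, and the authors deposited each array's spot and background intensity as Feature Extraction 10.10.1.1 wrote it, plus a table of log2 ratios normalized with limma in R 3.0.2, which was used as an alternative with its sign turned to mouse over reference. From the intensities, median spot signals were taken, a local background above its own spot was replaced with the median background of the array, normexp (offset 50) and loess within arrays were applied, spots of a probe were averaged, and lmFit and eBayes of limma 3.58.1 (R 4.3.3) were fitted to all probes of a tissue. Calls required a fold change over 1.5 and FDR under 0.05 after Benjamini-Hochberg adjustment. Both tissues together were fitted with the slide as a random block (correlation 0.206), with liver and colon samples treated as separate mice. Groups came from the labels, and 2 arrays of 1 animal were averaged. Probes were named through RefSeq accessions (44 of 45 members, and 1 from the study's probe list). No dye was swapped, so a dye effect is shared by all arrays. Results of some members and markers are not reported here by name. Values are given for the 3 members of lowest p in each main diet comparison, the extremes of liver against colon, and members chosen by role, and from other lists for the called genes or the 2 of lowest p. Members, lists and tests were chosen with earlier results of these data known. On simulated data with 200 changed probes the liver fit recovered 181 and called 1 unchanged probe among 40834. Every planted change exceeded the 1.5-fold threshold, and the noise was independent between probes. Recovery of changes as small as the diet differences of the members was therefore not tested. Alternatives covered background, normalization, channel, blocks, weights, probe choice and the omission of each mouse.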

Additional observations from a re-analysis of the deposited data

Results flagged for a closer look

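Single mice stood far from the rest of their group in 7 of 144 sets of values tested by the gap of the highest or lowest mouse to its neighbour over the group's range, and chance gives about 1 in 20. The median over the 33 genes was -0.34 in replicate 4 of the LH livers and -0.72 to -0.58 in the other 5 mice. Rps19 was -0.17 in replicate 4 of the LH livers and -0.63 to -0.47 in the other 5 mice. Rps19 was 0.30 in replicate 4 of the HL livers and -0.47 to -0.18 in the other 5 mice. Rps27l was 0.41 in replicate 3 of the LH livers and 0.072 to 0.17 in the other 5 mice. Rps29 was -0.023 in replicate 1 of the HL livers and -0.97 to -0.67 in the other 5 mice. Rps23 was -1.33 in replicate 3 of the LL livers and -0.99 to -0.83 in the other 5 mice. Rps4l was 1.32 in replicate 1 of the LH colons and 0.93 to 1.06 in the other 5 mice. Replicate 4 of the LH livers was thus the highest of its group for both Rps19 and the median of the members, and without it that median differed from HH by -0.30 on the log2 scale, with 24 of 45 member probes lower at an unadjusted p under 0.05.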

How the results depend on the processing

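No member was called in a diet comparison under any of the alternatives run, and 9 of 718 recomputed medians of the members moved by more than 1 SD between mice. The liver median for LH against HH ran from -0.33 to -0.18 over 19 alternatives and from -0.30 to -0.22 with each mouse left out, with 10 to 26 and 18 to 24 probes lower at an unadjusted p under 0.05. The share of all probes at that p was not computed under the alternatives or with a mouse left out. With median centring of each array in place of loess, the medians became -0.035 for HL minus HH, 0.093 for LL minus HH, 0.12 for the offspring diet in liver, -0.046 for LH minus HL in colon and -1.22 for liver minus colon. Under it Rps6 was 0.083 and Rps4l 0.071 for LH minus HH in liver, and Rps4l -0.079 for liver minus colon. The liver minus colon median was -1.22 with normexp at offset 0, -1.12 with the scanner's processed signals, -1.04 with loess fitted without ribosomal proteins and -1.44 with the mouse channel alone, and 3 probes were called higher with no fold minimum. With array weights Rpsa was -0.0016 for LH minus HH in liver. Leaving out each mouse in turn, Rps6 ran from -0.063 to 0.048 and Rps4l from -0.16 to 0.028 in that comparison. The cause of these shifts was not tested. For HL minus HH the count of lower probes at an unadjusted p under 0.05 was also 3 with offset 0, 4 with the array position as a block, 14 with the deposited ratios and 16 with array weights. Leaving out the LL colon array rich in lymphocyte markers was chosen after seeing the data. No paired analysis was possible because each animal in the labels belongs to 1 diet group and 1 tissue, and the slide was used as a block instead. For liver against colon, which lie on separate slides, the slide as a fixed block could not be fitted, and array position and array weights were not run. Signal was over background for nearly all members, and both the number of mice and the choice of processing limit the precision.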
